A study of Rattus norvegicus with 48 samples.

Results

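The amygdala of rats exposed to ethanol before birth and then raised with social enrichment was compared with the amygdala of rats that had neither treatment. The libraries were chosen by their labels: all 6 ethanol socially-enriched (ES) and all 6 saline non-enriched (CN) amygdala libraries were taken, 12 of the 48 small RNA libraries of the series. All rats were Long Evans at postnatal day 42. In the ES group, dams were injected with ethanol on gestational day 12 and the weaned offspring were housed with same-sex rats of the same age from untreated dams. In the CN group, dams were injected with saline and the offspring stayed with same-sex littermates. Each library was made from the pooled amygdala RNA of 3 rats of 1 sex, so a library is not an animal, and each group held 3 female pools (F1 to F3) and 3 male pools (M1 to M3). All rats had undergone a social interaction test before the brains were taken, so both groups carried that experience. The other 12 amygdala libraries came from ethanol non-enriched (EN) and saline socially-enriched (CS) rats and were used to estimate the spread and to set levels side by side. The difference between ES and CN itself uses no EN library. Its standard errors, intervals and limma p-values rest on the spread of all 24 amygdala libraries, EN included. The comparison asks how close exposed and enriched rats were to the control level, and the effects of ethanol and of housing cannot be told apart in it.

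MicroRNAs (miRNAs) are cut from hairpin precursors into short mature strands that guide Argonaute proteins to messenger RNAs, mainly through pairing of the seed at the 5′ end of the strand, and lower the output of those messages. The amygdala processes fear, emotional salience and social signals, and its neurons hold large amounts of neuronal miRNAs such as miR-124 and of the imprinted miRNAs of the Dlk1 region. In the table, names with a capital R (miR) are mature strands and names in lower case (mir) are hairpins, except that let-7 strands end in 5p or 3p. Levels are in RPM, reads scaled to a fixed total, with mature strands and hairpins each summing to 1e+06 per library, and differences are in log2(RPM + 1), ES minus CN, which understates the change of names with few reads.

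Of the 36 mature names described, 33 matched an entry of the RefSeq table. Shown here, of these, are strands at a mean of at least 10 RPM with an unadjusted p under 0.05, since these carry the differences with the most reads, and 2 strands of lower level, miR-203a-3p and miR-29c-5p, which are described beside their hairpins. The sequences are from RefSeq (GRCr8), 5′ to 3′, with the seed (bases 2 to 8) in capitals.
let-7c-5p: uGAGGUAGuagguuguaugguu
miR-30c-5p: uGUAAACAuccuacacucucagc
miR-667-3p: uGACACCUgccacccagcccaa
miR-325-5p: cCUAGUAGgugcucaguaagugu
miR-493-5p: uUGUACAUgguaggcuuucauu
miR-148a-5p: aAAGUUCUgagacacucugacuc
miR-203a-3p: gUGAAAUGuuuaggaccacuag
miR-29c-5p: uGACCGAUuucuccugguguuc
No seed occurs more than once among these 8 strands. Close relatives that share a seed with let-7c-5p or miR-30c-5p are shown because their values are set beside them.
let-7b-5p: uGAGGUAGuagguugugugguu
miR-30a-5p: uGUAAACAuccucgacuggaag
miR-384-5p: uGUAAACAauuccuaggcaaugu

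Few miRNAs differed between ES and CN: mir-203a was the one name lower after adjustment, mir-148a the one name whose groups did not overlap, and the let-7c set had the most reads among the higher names. Of the 910 names tested (498 mature strands and 412 hairpins), 29 (3.19%) had an unadjusted limma p under 0.05, which is fewer than the 45.5 names that such a threshold would give without any difference. Of these names, 7 (0.769%) were higher and 22 (2.42%) were lower in ES. After rescaling by median ratios the split was 9 higher and 16 lower, and without CN F1, CN M3, ES M1 or ES M2 it was 14 and 15, 16 and 20, 13 and 18, or 11 and 15. A single name (0.11%) passed the Benjamini-Hochberg adjustment, mir-203a. The ES and CN libraries did not overlap for a single name either (0.11%), mir-148a. The median difference over all 910 names was −0.03, and the median size of a difference was 0.13.

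How tightly the ES level is bounded around the control level depended on abundance. The 95% confidence interval of the difference lay within ±1 on the log2 scale for 610 of 910 names (67.0%) and within ±0.5 for 325 (35.7%). Among the 174 names at 1000 RPM or more, 96.6% of the intervals lay within ±1 and 74.1% within ±0.5. Among the 328 names under 10 RPM, only 28.0% lay within ±1, and the median half-width of the interval was 0.91. For most of these names the intervals were too wide to show any but large differences. Names near 0 RPM can have narrow intervals because 1 is added before the logarithm, and such intervals do not show closeness. Of the names under 10 RPM, 34 lay within ±0.5. In the same fit, EN minus CN gave 41 names at an unadjusted p under 0.05 (4.51%) and a median size of difference of 0.17, and CS minus CN gave 24 names (2.64%) and 0.12. Both share the CN libraries with ES minus CN.

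**Figure D1:**
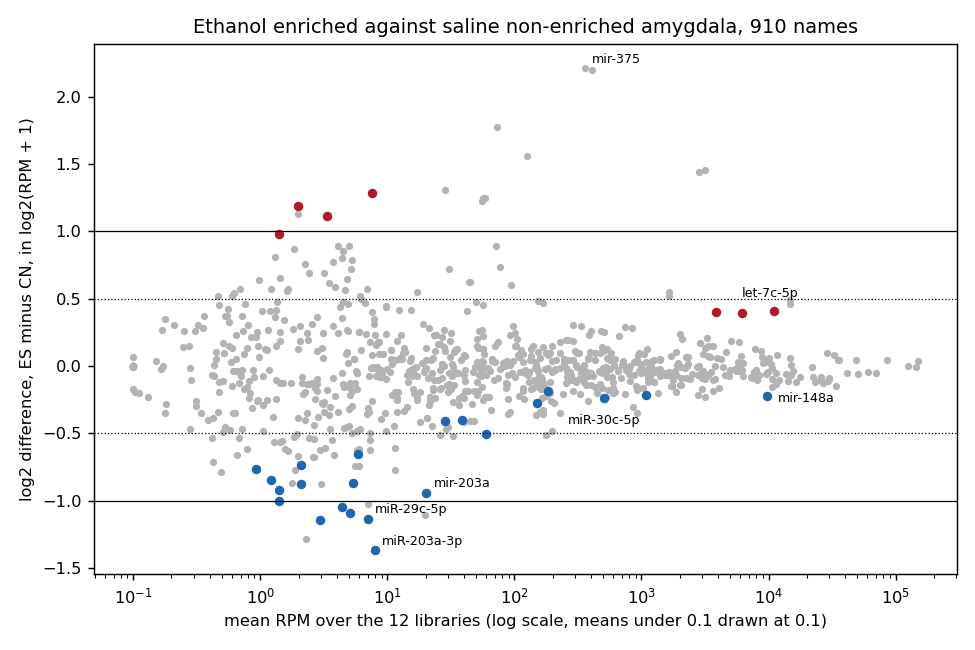
Difference between ethanol socially-enriched (ES) and saline non-enriched (CN) amygdala, in log2(RPM + 1), against the mean RPM over the 12 libraries for 910 names. Red points are higher and blue points lower at an unadjusted p under 0.05, and lines mark ±1 (solid) and ±0.5 (dotted). The 29 coloured points lie mostly below 0, with 17 of them under 10 RPM, and the mir-375 points at the top are grey since their p was over the threshold.

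Library depth overlapped between the groups. The most frequent low value of a library was taken as the worth of 1 read. By this estimate, the ES libraries held 363141 to 972187 mature reads (median 780741.5) and the CN libraries 439398 to 1287699 (median 891449). On that scale 1 mature read was worth 0.777 to 2.75 RPM. The 10 most abundant strands took 56.9% to 62.2% of the mature RPM of a library. No library stood apart by correlation: Pearson correlations of log2 values across names were 0.968 to 0.986 within the groups and 0.961 to 0.989 between them, where all points of a pair share the same 2 libraries. The number in each library's code ran from 24 to 86 in ES and from 8 to 36 in CN, and its meaning is not given in the sources used here. With this number as a covariate, the count of names at the unadjusted threshold was 56 (9 higher, 47 lower), and 0 passed the adjustment by limma. Whether the number plays a part in the differences was not tested beyond this fit.

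mir-203a, the hairpin of a miRNA best known from skin and other stratified epithelia, was at 0.50 times the control mean. ES libraries held 9.55 to 18.7 RPM (median 13.01) and CN libraries 16.5 to 34.5 RPM (median 26.8). Of the 6 ES libraries, 5 were below every CN library, and ES F2, at 18.7 RPM, was above CN M3, at 16.5 RPM. The means were 13.5 ± 3.19 RPM in ES and 27.1 ± 6.54 RPM in CN (SD, n = 6), which are 11 and 25.5 reads per library. The difference was −0.94 (SE 0.17, 95% interval −1.30 to −0.58), with a Benjamini-Hochberg adjusted p of 0.0319 by limma. An exact permutation test of the mean RPM gave a two-sided p of 0.00433, where 0.00216 is the smallest p that 6 against 6 libraries allow. The difference was −1.13 in females and −0.75 in males. The adjusted call did not hold without CN F1, CN F2, CN F3, CN M1, CN M2, ES F1, ES F3, ES M2 or ES M3, and over the 12 fits that left out 1 library the adjusted p ranged from 0.0128 to 0.144 by limma while the difference ranged from −1.04 to −0.85. In a fit of the 12 ES and CN libraries alone the limma adjusted p was 0.365.

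The mature strand of this hairpin, miR-203a-3p, was also lower. ES libraries held 0.0256 to 10.5 RPM (median 4.38) and CN libraries 4.60 to 22.5 RPM (median 9.60), and the groups overlapped. The difference was −1.37 (SE 0.46, limma p = 0.0089, exact permutation p = 0.0368), at 3.5 reads per ES library and 9.12 per CN library. Reads of the strand can also count for the hairpin, so the strand is not a separate measurement. The lowest ES value, in ES M2, is less than 1 read. EN libraries had a mean of 18.9 ± 4.42 RPM and CS libraries of 21.8 ± 3.64 RPM of mir-203a (SD, n = 6), between the ES and the CN means. The row mir-203b held at most 0.00822 RPM in any of the 12 libraries and gives no reading of its own.

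The hairpin mir-148a differed little in size but without overlap. ES libraries held 8250 to 9616 RPM (median 9123), and CN libraries 9971 to 11104 RPM (median 10344). Every ES library was thus below every CN library. The difference was −0.22 (SE 0.09, 95% interval −0.41 to −0.03), with an unadjusted p of 0.0234 and a Benjamini-Hochberg adjusted p of 1 by limma. Among 910 names it was the single one without overlap (0.11%), which is no more than would be found without any difference. Its strand miR-148a-5p lay at 919 to 1151 RPM (median 993) in ES and 1096 to 1265 RPM (median 1171) in CN, and its difference was −0.22 (SE 0.10, limma p = 0.0365, exact permutation p = 0.00649). The other strand, miR-148a-3p, was at 161 ± 13.1 against 176 ± 15.8 RPM (SD, n = 6), a difference of −0.12 whose 95% interval, −0.41 to 0.17, includes 0. CS libraries (10501 ± 1245 RPM of mir-148a) were near the CN mean of 10434 ± 468 RPM, and EN libraries had a mean of 9315 ± 1486 RPM (SD, n = 6). The sources used here do not say how hairpin reads were assigned. In CN the hairpin row stood at 10434 RPM, against 1169 RPM for miR-148a-5p and 176 RPM for miR-148a-3p. Hairpins and strands are scaled to separate totals, so these values do not rank the hairpin against its strands. How the difference of mir-148a relates to those of its strands was not tested. Of the 9 tested names of the mir-148 and mir-152 family, mir-148a and miR-148a-5p, a hairpin and its own strand, had an unadjusted p under 0.05, both lower (2.42% over all names), and the family's median difference was −0.12.

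**Figure D2:**
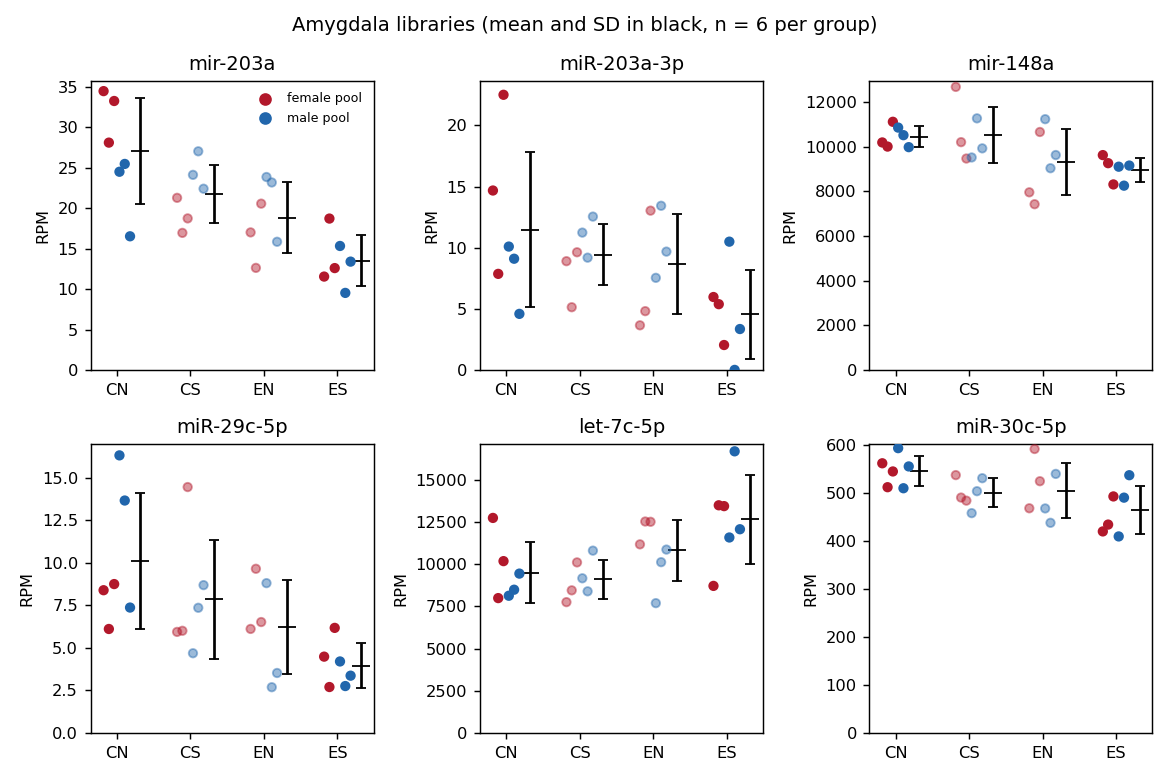
RPM of 6 miRNAs in every amygdala library of the saline non-enriched (CN), saline socially-enriched (CS), ethanol non-enriched (EN) and ethanol socially-enriched (ES) groups, with red points for female and blue for male pools and black marks for mean and SD (n = 6 per group). ES lies below CN without overlap for mir-148a, with 1 ES library above the lowest CN library for mir-203a, and with 3 of 6 ES libraries above every CN library for let-7c-5p.

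Among the higher miRNAs, the let-7c set had the most reads. let-7 miRNAs rise as cells differentiate and are abundant in the adult brain. The strand let-7c-5p lay at 8708 to 16680 RPM (median 12749) in ES and 7986 to 12734 RPM (median 8959) in CN. Of the 6 ES libraries, 3 were above every CN library, and ES F1, the lowest, was below the CN median. The difference was 0.41 (SE 0.14, 95% interval 0.11 to 0.70, unadjusted limma p = 0.00954), and the exact permutation p was 0.039. The hairpins let-7c-1 (4424 ± 634 against 3353 ± 481 RPM, a difference of 0.40) and let-7c-2 (7092 ± 1860 against 5364 ± 1265 RPM, a difference of 0.39; SD, n = 6) moved with it. All 3 rows draw on one mature sequence, so reads cannot be assigned to one hairpin, and they count as a single observation.

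The 9 tested strands with the seed GAGGUAG had differences from −0.10 to 0.41, 7 of them below 0, and 1 had an unadjusted p under 0.05, let-7c-5p. let-7b-5p was at 2202 ± 444 RPM in ES and 1852 ± 333 RPM in CN (SD, n = 6), a difference of 0.24 (95% interval −0.04 to 0.52). Its sequence is close to that of let-7c-5p, and how reads matching both were divided is not given in the sources used here. let-7f-5p, the most abundant of the 9, was at 22101 RPM in ES and 22200 RPM in CN, a difference of −0.01. Of the 33 let-7 and mir-98 names tested, 3 (the let-7c set) were higher and 0 lower at an unadjusted p under 0.05 (0.769% and 2.42% over all names), with a median difference of −0.05. In the RefSeq gene table let-7c-2 lies 415 bp from let-7b, a hairpin that differed by 0.20 (95% interval −0.07 to 0.48). The hairpin let-7c-1 neighbours mir-99a, and mir-125b-2 also lies within 50 kb. mir-99a differed by 0.13 (95% interval −0.25 to 0.51) and mir-125b-2 by 0.07 (95% interval −0.15 to 0.30).

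miR-30c-5p belongs to a family that is abundant in neurons. It lay at 409 to 537 RPM (median 462) in ES and 510 to 593 RPM (median 550) in CN, and 5 of 6 ES libraries were below every CN library. Its difference was −0.24 (SE 0.08, limma p = 0.00643, exact permutation p = 0.0108). The other strands with the seed GUAAACA were nearer to 0, with miR-30a-5p at −0.05, miR-30e-5p at −0.05 and miR-384-5p at −0.01. Of the 17 mir-30 names tested, 1 had an unadjusted p under 0.05, against 3.19% over all names, and the whole interval of 16 lay within ±0.5.

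miR-29c-5p is the minor strand of a miRNA that rises with brain maturation. It lay at 2.70 to 6.17 RPM (median 3.78) in ES and 6.11 to 16.3 RPM (median 8.57) in CN. Of the 6 ES libraries, 5 were below every CN library. The difference was −1.13 (SE 0.28, 95% interval −1.72 to −0.54), with a Benjamini-Hochberg adjusted p of 0.381 by limma, at 3.0 reads per ES and 8.67 per CN library. The hairpin mir-29c-2 differed by −0.18 (limma p = 0.045, exact permutation p = 0.0606), while the major strand miR-29c-3p, at 450 ± 56.8 against 495 ± 68.1 RPM (SD, n = 6), differed by −0.14 with an interval that includes 0 (−0.34 to 0.07). Of the 12 mir-29 names tested, 2 were lower at an unadjusted p under 0.05, against 2.42% over all names, with a median of −0.17.

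The remaining lower names at 10 RPM or more were miR-667-3p, miR-325-5p, miR-674-3p and miR-493-5p. miR-667-3p, from the imprinted mir-379 to mir-410 cluster, lay at 19.9 to 26.9 RPM (median 24.99) in ES and 26.5 to 41.0 RPM (median 32.7) in CN, a difference of −0.41 (SE 0.14, limma p = 0.00788, exact permutation p = 0.00649). miR-493-5p, from the imprinted hairpins around the gene Rtl1, lay at 26.7 to 37.0 RPM (median 34.4) in ES and 32.6 to 56.6 RPM (median 43.8) in CN, a difference of −0.40 (SE 0.17). The opposite strand of the same hairpin, miR-493-3p, had 1.0 read per ES and 3.17 per CN library, with a difference of −1.15. Both imprinted groups had medians near 0. Of 87 names of the mir-379 to mir-410 cluster, 1 was higher and 2 lower at an unadjusted p under 0.05, with a median of −0.02. Of 38 names from the imprinted hairpins around Rtl1, 0 were higher and 2 lower, the strands of mir-493, with a median of −0.04. Over all names, 0.769% were higher and 2.42% lower at that threshold. miR-325-5p lay at 127 to 149 RPM in ES and 134 to 194 RPM in CN (difference −0.27), and miR-674-3p at 28.8 to 63.3 and 58.7 to 95.6 RPM (difference −0.50).

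Of the 29 names at an unadjusted p under 0.05, 17 had a mean under 10 RPM, 13 lower and 4 higher. The higher ones were miR-99b-3p (10.3 ± 2.96 against 4.74 ± 3.59 RPM, SD, n = 6), miR-17-1-3p, mir-3084a and mir-544. miR-99b-3p had 7.33 reads per ES and 4.67 per CN library, and 4 of 6 ES libraries were above every CN library. The lower ones held, beside the 3 strands given above, miR-142-3p (a strand of blood-forming and microglial cells), miR-19a-3p, miR-412-3p, miR-425-3p, miR-96-5p with its hairpin mir-96, mir-147, mir-2985, mir-3084b-2 and mir-6319-2. miR-96-5p was listed at 0 in 5 of 6 ES and 2 of 6 CN libraries and did not exceed 8.38 RPM anywhere. Values of this size rest on a few reads, and the samples' spread includes that counting error.

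Several large differences among the higher names did not pass the test. miR-375-3p, a strand of endocrine cells such as those of the pituitary and of the pancreatic islets, lay at 61.7 to 2221 RPM (median 329) in ES and 5.09 to 472 RPM (median 161) in CN. ES M1 alone held 2221 RPM, and 3 CN libraries held between 5.09 and 25.03 RPM. The difference of 2.20 had a 95% interval from −0.21 to 4.60. Without ES M1 or any other single library it ranged from 1.15 to 2.88. Next in size were miR-34b-5p (1.78), mir-34b (1.56), miR-34c-5p (1.45), mir-34c (1.44) and mir-1912 (1.31), of the ciliated epithelium and choroid plexus lists, all with intervals that include 0. Smaller than these, miR-652-3p, whose gene lies in an intron of a gene on the X chromosome, was at 94.9 ± 41.5 RPM in ES and 49.2 ± 15.8 RPM in CN (SD, n = 6). Its difference was 0.89 (95% interval −0.03 to 1.80), 5 of 6 ES libraries were above every CN library, and the exact permutation p of the mean RPM was 0.026. With the library number as a covariate its difference was −0.13. miR-125b-2-3p (difference 0.21), mir-3590 (0.29), mir-652 (0.73) and let-7b-5p likewise had intervals that include 0, and so had mir-325 among the lower names (−0.14).

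The 5 most abundant strands were close to the control level. miR-181a-5p lay at 112316 to 199524 RPM (median 153123) in ES and 124748 to 163390 RPM (median 152080) in CN, a difference of 0.03 (95% interval −0.22 to 0.29). miR-127-3p, the leading strand of the imprinted hairpins antisense to Rtl1, differed by −0.01 (95% interval −0.33 to 0.32). miR-26a-5p differed by −0.05 (95% interval −0.28 to 0.18), miR-30a-5p by −0.05 (95% interval −0.28 to 0.18) and miR-191a-5p by 0.05 (95% interval −0.13 to 0.22). The ES libraries spread more widely than the CN libraries for miR-181a-5p and miR-127-3p, with ES F3 highest for the former and ES F1 highest for the latter.

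The study listed 29 miRNAs for its ethanol effect in the amygdala of non-enriched rats, and their ES levels show where enriched exposed rats lay for the same names. The list was chosen on these libraries, and EN minus CN uses the same CN libraries. It is therefore not independent evidence of its direction or size. Names chosen for a difference in EN minus CN tend to have a larger size there, whatever their level in ES. Deviations of the shared CN libraries move ES minus CN the same way, and so can raise its count and size for these names. The study took names that its arrays also held at a looser threshold on both platforms, so the counts below do not check its list. Names absent from the arrays were taken by sequencing alone. Of the 29, 14 had an unadjusted p under 0.05 in EN minus CN, with a median size of difference of 0.50. In ES minus CN, 4 of 29 did, 1 higher (mir-3084a) and 3 lower (miR-667-3p, miR-148a-5p and miR-412-3p), with a median size of 0.27, against 3.19% and 0.13 over all names. The whole interval of ES minus CN lay within ±0.5 for 11 of the 29 names and within ±1 for 17. The 11 include mir-3556b-2, at 0.0118 RPM in ES and 0.0134 RPM in CN, whose narrow interval comes from the 1 added before the logarithm.

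**Figure D3:**
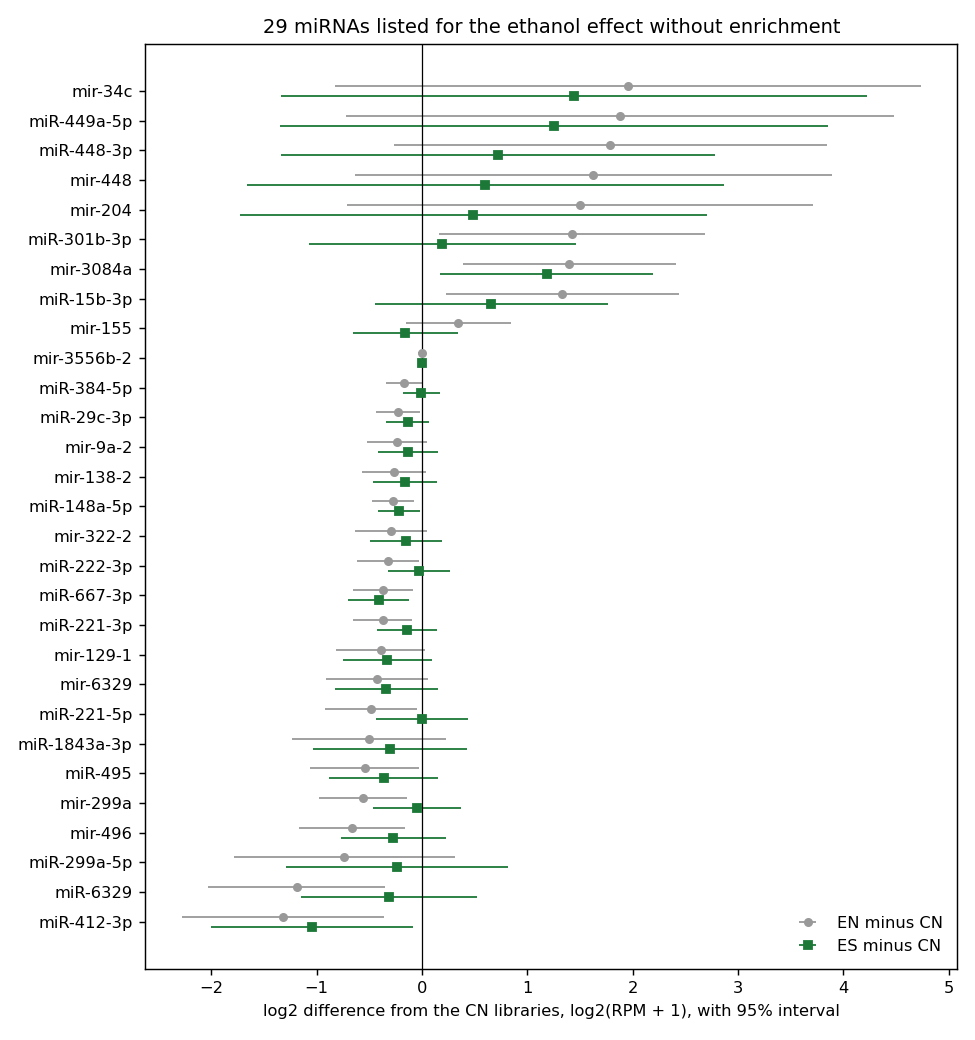
Differences from the saline non-enriched (CN) amygdala libraries in log2(RPM + 1), with 95% intervals, for the 29 miRNAs listed by the study for ethanol without enrichment: grey circles for ethanol non-enriched (EN) and green squares for ethanol socially-enriched (ES). For miR-222-3p, miR-221-5p, mir-299a and miR-384-5p the green squares lie near 0, whereas miR-148a-5p, miR-667-3p and miR-412-3p have both points below 0, and both points use the same CN libraries.

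Among these, the strands of the mir-221 and mir-222 cluster, known for lowering a cell cycle inhibitor, lay near the control level. miR-222-3p lay at 97.6 to 138 RPM (median 129) in ES and 102 to 148 RPM (median 122) in CN, a difference of −0.03 (95% interval −0.32 to 0.27), where EN minus CN was −0.32. miR-221-3p lay at 1520 to 2262 RPM in ES and 1895 to 2374 RPM in CN, a difference of −0.14 (95% interval −0.43 to 0.14), where EN minus CN was −0.37. For all 5 names of the cluster the interval of ES minus CN lay within ±0.5, with a median of −0.05. miR-384-5p, a strand tied to synaptic plasticity, lay at 2314 to 3149 RPM (median 2721) in ES and 2522 to 2982 RPM (median 2723) in CN. Its difference was −0.01 (95% interval −0.18 to 0.17), where EN minus CN was −0.17. mir-299a, from the mir-379 to mir-410 cluster, was at 33.6 ± 6.24 RPM in ES, 34.8 ± 6.59 RPM in CN and 23.8 ± 7.28 RPM in EN (SD, n = 6). miR-6329 (6.11 ± 2.01, 7.91 ± 2.80 and 3.33 ± 1.90 RPM in ES, CN and EN) and miR-301b-3p (2.68 ± 3.04, 2.08 ± 2.41 and 5.91 ± 2.94 RPM) differed by −0.31 (95% interval −1.15 to 0.53) and 0.19 (95% interval −1.07 to 1.46).

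The 4 listed names at an unadjusted p under 0.05 are given side by side with EN. Both differences use the same CN libraries, so a shared sign is not a result. miR-148a-5p differed from CN by −0.22 in ES and −0.27 in EN, miR-667-3p by −0.41 and −0.37, miR-412-3p by −1.04 and −1.32, and mir-3084a by 1.18 and 1.40. The study's 19 amygdala miRNAs for the effect of enrichment in ethanol-exposed rats, also chosen on these libraries, included 1 higher (miR-17-1-3p) and 2 lower names (miR-142-3p and miR-493-3p) at an unadjusted p under 0.05 in ES minus CN, against 0.769% and 2.42% over all names, with a median of −0.03. For these 3 names EN minus CN was 0.41, 0.17 and 0.04. No difference between ES minus CN and EN minus CN was tested, since that is the effect of housing among exposed rats and not the comparison made here.

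Lists of miRNAs of cell types were used to check the tissue. The summed mature RPM of the neuronal list lay at 175778 to 250522 (median 214079) in ES and 183377 to 226154 (median 220638) in CN. Most of each sum was miR-181a-5p, with means of 153093 and 147957 RPM, while miR-124-3p was at 2468 ± 437 and 2558 ± 388 RPM (SD, n = 6). Of its 59 tested names, 0 had an unadjusted limma p under 0.05 in either direction (3.19% over all names), with a median of −0.08. The 28 activity-regulated and synaptic names likewise gave 0 at that threshold and a median of −0.07. The oligodendrocyte (10 names, median 0.03), microglia and immune (16, median −0.06) and vascular (16, median −0.07) lists gave 1 lower name, miR-142-3p. The neuroendocrine (9 names), muscle (18), blood (5) and liver (8) lists gave 0 names by limma at that threshold. With 3.19% of all names called, a count of 0 or 1 in lists this short says little. In pooled tissue, fewer cells of a type and less RNA per cell cannot be told apart.

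miRNAs of tissue next to the amygdala varied widely within both groups. The choroid plexus list, led by miR-204-5p, summed to 4301 to 40037 RPM (median 16029) in ES and 3424 to 34815 RPM (median 8164) in CN, with 3 high and 3 low libraries in each group. The list of ciliated epithelium, led by miR-34c-5p, summed to 447 to 9288 RPM (median 3773) in ES and 157 to 7118 RPM (median 1644) in CN. Of 11 and 9 names tested, 0 in either list had an unadjusted limma p under 0.05 (3.19% over all names), with medians of 0.55 and 1.25. miR-204-5p itself lay at 3928 to 36484 RPM in ES and 3085 to 30570 RPM in CN, and its difference of 0.46 had an interval from −1.70 to 2.63, too wide to place the ES level. The mir-8 and mir-183 list of epithelial and sensory cells summed to 129 to 1361 RPM in ES and 95.5 to 755 RPM in CN. Of its 15 names, 2 were lower at that threshold (2.42% over all names), miR-96-5p and its own hairpin mir-96. miR-96-5p had means of 0.514 RPM in ES and 2.29 RPM in CN. The list median was 0.20, while mir-203a, another miRNA of epithelia, was lower in ES. The part of these tissues in the difference of mir-203a was not tested.

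**Figure D4:**
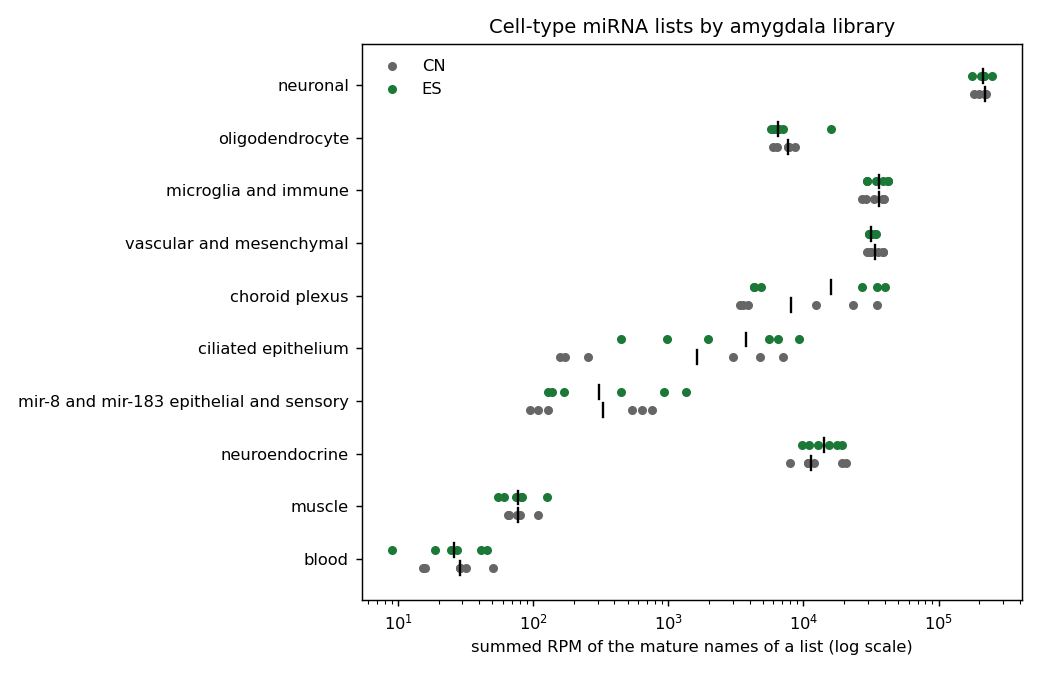
Summed RPM of the mature names of 10 lists of cell-type miRNAs in each ES (green) and CN (grey) amygdala library, on a log axis, with black bars for the group medians. The neuronal sums lie between 175778 and 250522 RPM in all 12 libraries, and the choroid plexus sums of both groups fall into a low and a high set of 3 libraries each.

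Few miRNAs differed between females and males in this comparison. The difference of ES minus CN between the sexes had an unadjusted limma p under 0.05 for 21 of 910 names (2.31%) and a Benjamini-Hochberg adjusted p under 0.05 for 0, the smallest being 0.619. Without CN F2, ES F3 or ES M3 the count at an unadjusted p under 0.05 was 38, 45 or 46. miR-184 differed by −1.34 in females and 0.41 in males, where CN F2 held 72.3 RPM and the other CN libraries 21.2 to 37.7 RPM. mir-184, its hairpin, differed by −1.31 and 0.29, and mir-874 by 0.47 and −0.17. The counts within each sex were 29 names in females and 32 in males, both without an adjusted call.

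The ventral striatum, the other region sampled in the same 2 groups, gave 20 names at an unadjusted limma p under 0.05 for ES minus CN and 0 after adjustment. Both regions came from the same rats, but the fit of all 48 libraries treated the libraries as independent. The difference between the regions had an unadjusted p under 0.05 for 22 of 968 names (2.27%), 9 higher (0.93%) and 13 lower (1.34%) in the amygdala, and 0 passed the Benjamini-Hochberg adjustment by limma (smallest 0.201). Without CN M3 the first count was 34. Leaving out CN F2 or ES F3 gave 1 or 2 adjusted calls by limma. The names were miR-17-1-3p and, for ES F3, the hairpin mir-133b with its strand miR-133b-3p. Consecutive library numbers were also tried as a random block. The region difference then had an unadjusted limma p under 0.05 for 23 names (9 higher, 14 lower). With this block 0 names passed the adjustment by limma (smallest 0.142). The values below are from the fit without the block. Between the regions mir-203a differed by −0.90, with a Benjamini-Hochberg adjusted p of 0.311 by limma: in the striatum it was at 23.1 RPM in ES and 23.9 RPM in CN, a difference of −0.04. In the striatum mir-148a was at 12222 RPM in ES and 15816 RPM in CN, a difference of −0.38 with an adjusted p of 0.683 by limma. Its difference between the regions was 0.16 (95% interval −0.18 to 0.50). miR-375-3p, at 105 and 307 RPM in the striatum, differed between the regions by 4.44 (95% interval 1.16 to 7.73), with ES M1 of the amygdala holding the highest value. let-7c-5p differed by 0.25 in the striatum and by 0.16 between the regions (95% interval −0.26 to 0.57).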

How the data were processed

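Small RNA was sequenced from pooled RNA of amygdala and ventral striatum. The authors trimmed bases under a phred score of 20, aligned the reads to Rn5 with Bowtie, quantified mature and precursor names of miRBase 21 in Partek Flow and deposited a normalized signal, described as RPM, in 1 table. Per library, mature and precursor values each sum to 1e+06, so levels are compared within a name only. How reads matching several names were divided is not given in the sources used here.

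Lines sharing a name (122 lines of 56 names) were summed. Estimated reads came from the most frequent low value of a library, taken as 1 read, for mature and precursor names separately. By this estimate 92.5% to 99.5% of low mature and 86.3% to 93.3% of low precursor values were whole reads (tolerance 0.02). No count test was therefore used, and floors cover counting error only. A name entered the fit if it exceeded 0 RPM in 6 or more of the 24 amygdala libraries. R 4.3.3 with limma 3.58.1 fitted log2(RPM + 1) by lmFit, contrasts.fit and eBayes (trend). The model had 8 cells of sex, prenatal treatment and housing, the contrast was averaged over the sexes, and p-values were two-sided with Benjamini-Hochberg adjustment. The region difference used all 48 libraries, without a term for the rats that both regions share. Single miRNAs were also tested by exact permutation of the difference of mean RPM over 924 splits (Python 3.11.15, scipy 1.17.1). The calculations were tested on simulated data.

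Named miRNAs were those with an adjusted p under 0.05, the 10 higher and 10 lower with the smallest p at 10 RPM or more and 1 direction in both sexes, the 3 with the smallest p under 10 RPM, the study's reversed miRNAs, the 5 most abundant strands, and the 3 with the smallest p of the sex and of the region difference; low names at an unadjusted p under 0.05 and members of lists were named beside them. Members and lists were chosen with earlier results of these data known. Alternatives were other pseudocounts, filters, scaling, names, covariates, sample sets, a replicate block, an unlogged fit and each library left out. For the region difference, consecutive library numbers were also tried as a random block. Within a region, pools were made from separate rats, and p-values measure the spread between pools. No reads or array values were analysed here.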

Additional observations from a re-analysis of the deposited data

Results flagged for a closer look

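A library far from the other 5 of its group was looked for in the ES and CN amygdala values of the named miRNAs, 78 groups in all; 6 were found where chance gives about 3.9. ES M1 stood apart for mir-375 (1938.81 RPM) and miR-375-3p (2221.07 RPM), which are 1 hairpin and its strand. CN F2 stood apart for miR-184 (72.2629 RPM) and mir-184 (64.9993 RPM), again 1 hairpin and its strand. CN M2 stood apart for miR-674-3p (95.5854 RPM), and CN F1 for let-7c-2 (7775.49 RPM), above the other CN libraries in both.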

How the results depend on the processing

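The call of mir-203a was sensitive to the fit. It held under both pseudocounts, both filters, median-ratio rescaling, rows kept apart and estimated reads as a covariate; it was lost with the replicate block (0 adjusted calls, smallest adjusted p 0.109 by limma, difference −0.94), with only the ES and CN libraries (0, 0.365, −0.94) and with the library number as a covariate (0, 0.144, −0.79). With mature names only there were 0 calls (smallest 0.489), since hairpins are left out. The unlogged fit without moderation gave 2, mir-203a and mir-203b, whose values are too low to be read. Its difference ranged from −1.04 to −0.65 over 22 alternatives. Whether replicate numbers pair the libraries cannot be settled from 6 pairs: correlations of deviations ran from −0.44 to 0.29, with 2 of 6 over 0.1.

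Counts at an unadjusted p under 0.05 were 11 (4 higher, 7 lower) at a mean of at least 10 RPM, 18 with mature names only, and 56 (9 higher, 47 lower) with the library number as a covariate, against 29. Names with an interval within ±0.5 numbered 625 with a pseudocount of 10, 144 with mature names only and 207 with the library number, against 325; within ±1 they were 310 with mature names only, against 610. The sex difference gave 4 names at 10 RPM or more and 12 among mature names, against 21, and the region difference 6 at 10 RPM or more, against 22.

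Over the fits that left out 1 library, the count at an unadjusted p under 0.05 ran from 26 to 39, adjusted calls from 0 to 1, intervals within ±1 from 564 to 600 and within ±0.5 from 274 to 300, the sex difference from 21 to 46 names, and the region difference from 19 to 34 names with 0 to 2 adjusted calls. With fewer libraries the intervals are wider by construction.

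Several differences changed sign, among them those of miR-652-3p (0.89 as reported), mir-652 (0.73), mir-204 (0.49) and miR-204-5p (0.46). Under median-ratio rescaling, miR-384-5p was at 0.038, miR-222-3p at 0.014 and miR-127-3p at 0.036. With the library number as a covariate, miR-652-3p was at −0.13, mir-652 at −0.24, mir-299a at 0.045, miR-127-3p at 0.23 and mir-874 at −0.059. Leaving out 1 library moved miR-222-3p between −0.075 and 0.042, miR-384-5p between −0.057 and 0.054, mir-299a between −0.14 and 0.044, miR-301b-3p between −0.24 and 0.65, mir-204 between −0.033 and 0.96, miR-204-5p between −0.054 and 0.92, miR-181a-5p between −0.067 and 0.14, miR-127-3p between −0.12 and 0.097, miR-26a-5p between −0.11 and 0.027, miR-30a-5p between −0.097 and 0.029 and miR-191a-5p between −0.012 and 0.10. The cause of these changes was not tested. Names under 10 RPM had the widest intervals; the parts of counting error and of spread between pools in them were not separated.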
